A study of Homo sapiens with 5 samples.

Results

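NRF2, encoded by NFE2L2, is the transcription factor that controls the antioxidant response, and KEAP1 is the adaptor that keeps it low. The genes described here are both regulators and 7 of the best known NRF2 targets, NQO1, HMOX1, GCLC, GCLM, TXNRD1, SRXN1 and SLC7A11. They were taken by symbol among the genes present in each of the deposited tables, so their presence in the tables was a condition of the choice. The tables list 11102 genes for the knockout experiment and 12342 genes for the reconstitution experiment, and 10976 genes are in both.

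RNA was sequenced from HLF, an established line from a hepatocellular carcinoma. In the knockout experiment, cells with a control guide RNA (sgCtrl, USP28-Ctrl) and cells with a guide against the deubiquitinase USP28 (sgUsp28, USP28-KO) were compared. In the reconstitution experiment, all cells were USP28-KO cells and carried the lentiviral vector pRRL, either empty (pRRL-Ctrl) or with wild-type USP28 (USP28-WT) or a mutant that stays monomeric (USP28-M, pRRL-Usp28-Mono in the labels). By the study's methods, knockout lines were grown from picked single clones, so a knockout can carry features of its clone. The conditions name no drug treatment, and 1 sample is listed for each of the 5 conditions. By the same methods, knockout cells went through puromycin selection and lentivirally transduced cells through antibiotic selection. The values used here are averages that the authors formed over all libraries of an experiment, so each gene has 1 level for USP28-Ctrl and USP28-KO together and 1 level for the 3 reconstitution conditions together. A difference between conditions within an experiment is therefore not reported, and no spread between libraries can be given. The conditions share the average in each experiment, so a level says how much of a transcript HLF cells held in that set of libraries and not what the loss or return of USP28 did to it.

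Under basal conditions KEAP1 binds NRF2 and presents it to a CUL3 ubiquitin ligase. Electrophiles and oxidants modify cysteines of KEAP1, NRF2 then escapes degradation, pairs with a small MAF protein and binds antioxidant response elements in its target genes. BACH1 occupies the same elements as a repressor and is released by heme. In the liver the pathway is known for detoxification of quinones and drugs, for glutathione synthesis and for iron and heme handling. In some hepatocellular carcinomas it is activated by mutation, which was not examined for HLF here.

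The element that NRF2 binds has the core TGACNNNGC, read on either strand. RefSeq promoter windows of GRCh38.p14, from 250 bases before to 50 bases after an annotated start, were held for 7 of the 9 genes and searched for it. HMOX1 and SLC7A11 had no window. The core was found in 3 of the 7 genes, GCLM, TXNRD1 and KEAP1. It was found in 16.1% of all 27305 genes with a window, and in 19.5% of the 8897 genes of the knockout table with one. NFE2L2, GCLC, NQO1 and SRXN1 had no match in their windows, which says only that these letters are not there. The sites that GCLM, TXNRD1 and KEAP1 have in common are shown because their flanks also agree. Each is written 5′ to 3′ on the strand that carries the core, with the core in capitals:

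GCLM, chr1:93909436-93909484, plus strand: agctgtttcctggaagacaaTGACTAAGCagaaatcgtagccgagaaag

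TXNRD1, chr12:104286910-104286958, minus strand: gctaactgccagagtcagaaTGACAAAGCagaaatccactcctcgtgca

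KEAP1, chr19:10502774-10502822, plus strand: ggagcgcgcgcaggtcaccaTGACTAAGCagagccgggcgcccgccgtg

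In all 3 genes this core lies on the strand opposite to the gene and before the start of the window's transcript, at positions -34 to -26 in GCLM, -102 to -94 in TXNRD1 and -31 to -23 in KEAP1. Positions count from 1 at the first transcribed base, with -1 just before it. GCLM and KEAP1 hold the same core, TGACTAAGC. The stretch common to the 3 sites is ATGACNAAGCAGA, 13 bases long. It occurred in 4 of the 35116 windows (0.0114%), those of GCLM, TXNRD1 and KEAP1 and that of LOC124904221, whose window starts on the other strand at chr1:93909342-93909641 and overlaps that of GCLM. Because the stretch was read from these 3 sites, its count is a description. TXNRD1 has a second window with further matches at positions -99 to -91 and -8 to 1, and KEAP1 has a further match at -54 to -46. None of these 3 continues into the shared stretch:

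TXNRD1, chr12:104215660-104215708, plus strand: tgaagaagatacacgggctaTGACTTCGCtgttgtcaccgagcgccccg

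TXNRD1, chr12:104215751-104215799, minus strand: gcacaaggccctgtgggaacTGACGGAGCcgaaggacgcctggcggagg

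KEAP1, chr19:10502797-10502845, minus strand: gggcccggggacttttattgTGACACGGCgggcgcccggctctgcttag

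Coordinates are those of GRCh38.p14, whereas the authors' reads were aligned to hg19, so they locate the printed sequence and not the reads. Over the wider lists of 97 NRF2 pathway genes described further on, 24 of the 77 genes with a window (31.2%) held the core, among them SLC3A2, GSTP1, MGST1, PGD, ME1 and IDH1. The stricter form TGACTCAGC was in 0 of the 7 genes, in 3 of the 77 listed genes (3.90%) and in 0.689% of all genes with a window.

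**Figure D1:**
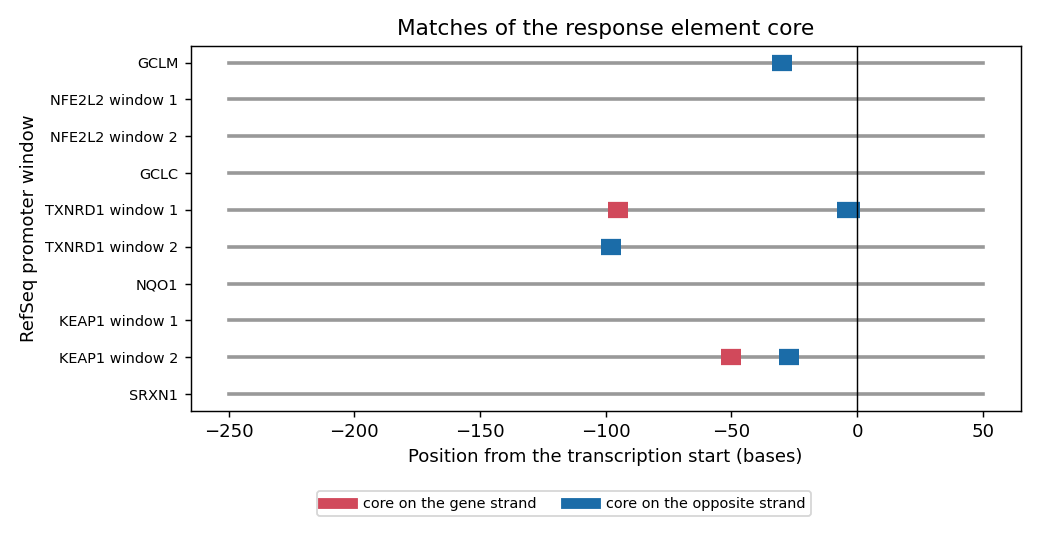
Each grey line is a RefSeq promoter window of 1 of the 7 genes, with position in bases from the annotated start on the horizontal axis, and each block is a match of the 9-base core on the strand its colour gives. Matches lie in windows of GCLM, TXNRD1 and KEAP1 only, between positions -102 and 1.

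The depth behind these levels was estimated from the spacing of the lowest averages. This assumes that 1 read moves an average by the same step in each library, as it would with pooled reads. In the knockout set a read was worth 0.130 CPM (reads of a gene scaled to the library total), which corresponds to about 7690000 reads over its libraries, and 97.1% of the 1000 lowest genes fell no further than 0.1 reads from a whole count. In the reconstitution set a read was worth 0.0329 CPM, or about 30430000 reads, with 69.8% of genes within that tolerance. The intervals given below are exact 95% Poisson intervals from these totals and cover counting error only. They rest on that assumption, and fewer of the lowest genes fell within the tolerance in the reconstitution set. USP28 itself had an average log2 CPM of 5.15 in the knockout set and of 9.79 in the reconstitution set, in which 2 of the 3 conditions carry a USP28 vector. Of 10 hepatocyte markers only FGB was listed in the knockout table, FGB and SERPINA1 were among those in the reconstitution table, and ALB, APOA1, TTR and AFP were in neither. Of the 4 epithelial markers KRT8 and KRT18 were listed in both tables and EPCAM and CDH1 in neither. The 4 mesenchymal markers, VIM among them, were listed in both, and the 5 blood and endothelial markers in neither.

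In the knockout set 6 of 9 genes lay above the median gene of the table and 5 in its top 25%. In the reconstitution set these counts were 7 and 4. By definition the median divides all genes evenly and the top 25% holds 25% of them, so counts over 9 genes are a description. The 9 genes also had to be present in each table. Among the 10976 genes of all tables their median percentile in the reconstitution set was 69.2, in place of 72.6. The median of the 9 genes was an average log2 CPM of 6.59 in the knockout set, beside 5.33 for all genes, and of 6.06 in the reconstitution set, beside 4.90. These levels are not per length, so they say how many reads a transcript took. Their percentiles ran from 30.5 for SLC7A11 to 95.9 for TXNRD1 in the knockout set, and from 38.3 to 98.3 for the same genes in the reconstitution set.

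**Figure D2:**
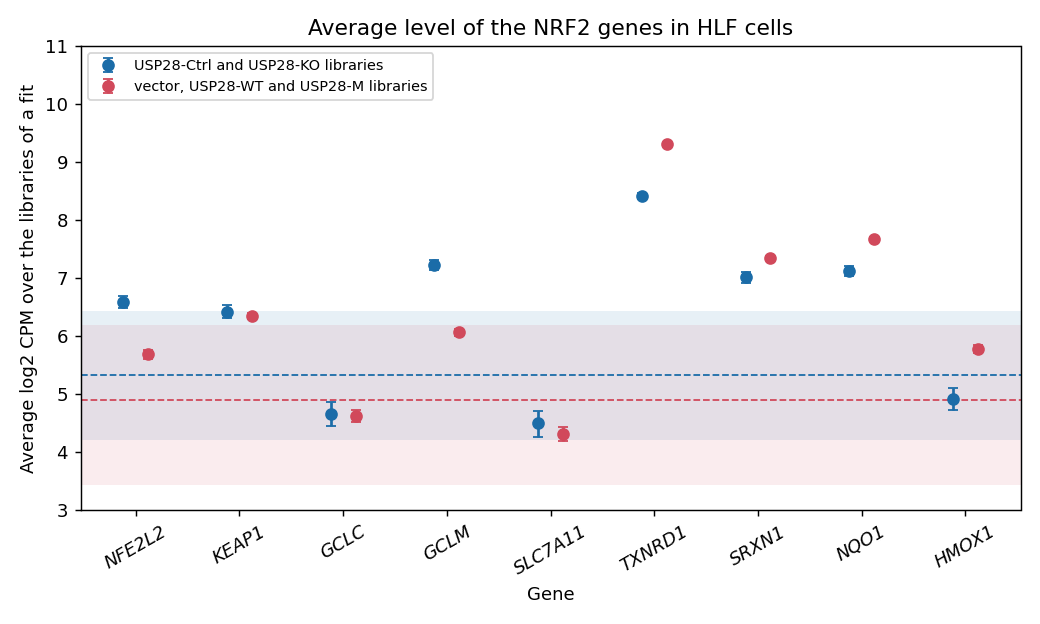
The vertical axis gives the average log2 CPM of each gene, with the 95% counting interval as the bar, in the USP28-Ctrl and USP28-KO libraries (blue) and in the vector, USP28-WT and USP28-M libraries (red). Dashed lines and bands mark the median and the middle 50% of all genes of each table. TXNRD1 is the highest gene in both sets, and GCLC and SLC7A11 lie below both medians.

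Of the regulators, NFE2L2, the transcription factor itself, had 96.2 CPM (89.4 to 103) in the knockout set and 51.4 CPM (48.9 to 54.0) in the reconstitution set. KEAP1, its inhibitor, had 85.6 CPM (79.2 to 92.5) and 81.2 CPM (78.0 to 84.5). KEAP1 thus had nearly the same average in both sets, with overlapping intervals, whereas those of NFE2L2 did not overlap. The intervals cover counting error only and the sets were normalized separately, so this describes the averages and is not a tested difference. Per kb of transcript, NFE2L2 was 1.17 times KEAP1 (1.05 to 1.30) in the knockout set and 0.658 times (0.617 to 0.701) in the reconstitution set. This ratio changed its side between the sets with each of the 3 measures of length tried. The 2 genes are of nearly equal length by each measure, so the 3 measures had to give nearly the same ratio. Median GC content of the transcripts was 44.0% for NFE2L2 and 61.8% for KEAP1, and the set difference followed GC content, as given below. Whether GC content moved this ratio was not tested. Exons of NFE2L2 overlap those of AGPS, which is listed, on the other strand by up to 54 bases. They also overlap AC019080.1 on the same strand by up to 205 bases and AC079305.1 on the other by up to 190. Neither of these is listed, and strand-specific counting is not stated.

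The genes of glutathione synthesis were uneven. GCLC, the catalytic subunit of glutamate-cysteine ligase, had 25.3 CPM (21.9 to 29.2) in the knockout set and 24.7 CPM (22.9 to 26.5) in the reconstitution set, and lay below the median gene in both. GCLM, the modifier subunit of the same enzyme, had 149 CPM (141 to 158) and 66.9 CPM (64.0 to 69.9). Per kb of transcript GCLM was 4.22 times GCLC (3.63 to 4.94) in the knockout set and 1.95 times (1.79 to 2.12) in the reconstitution set. On coding length these ratios were 13.7 and 6.32. Exons of GCLC overlap those of AL033397.1, which is not listed, on the same strand by up to 304 bases. SLC7A11, the cystine transporter xCT that supplies the cysteine, was the lowest of the 9 genes, with 22.5 CPM (19.3 to 26.1) and 19.8 CPM (18.3 to 21.5). Its heavy chain partner SLC3A2, which also serves other amino acid transporters, was 57.9 times higher per kb (49.5 to 68.3) in the knockout set and 65.7 times (60.4 to 71.5) in the reconstitution set. SLC7A11 has an annotated transcript of 9645 bases, and on coding length the ratios were 6.64 and 7.53. An antisense gene, SLC7A11-AS1, overlaps exons of SLC7A11 by up to 691 bases and is listed as well. Strand-specific counting is not stated, so reads of both strands may not have been told apart there.

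The thioredoxin branch held the highest gene. TXNRD1, the cytosolic reductase that returns electrons from NADPH to thioredoxin, had 341 CPM (328 to 354) in the knockout set and 632 CPM (623 to 641) in the reconstitution set, ranks 459 and 205 of all genes. Per kb it was 6.37 times (5.74 to 7.08) and 15.6 times (14.7 to 16.5) its mitochondrial paralogue TXNRD2. Its substrate thioredoxin, TXN, was 1.31 times TXNRD1 per kb (1.23 to 1.40) in the knockout set and 0.481 times (0.464 to 0.498) in the reconstitution set. With coding length the latter was 1.16, so the order of the 2 genes there rests on the length used. SRXN1, sulfiredoxin, repairs peroxiredoxins that have been overoxidized, and had 129 CPM (121 to 137) and 163 CPM (158 to 167). AL121758.1, a protein-coding gene on the same strand that is not itself listed, overlaps exons of SRXN1 by up to 2292 of 2698 bases. Reads of SRXN1 could therefore be split or lost in counting, and its levels, ratios and places are uncertain. PRDX1, the abundant peroxiredoxin, was 20.6 times SRXN1 per kb in the knockout set (19.2 to 22.0) and 12.8 times (12.4 to 13.2) in the reconstitution set, and on coding length 4.17 and 2.59 times.

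NQO1 and HMOX1 are the targets most often used as readouts of NRF2. NQO1, which reduces quinones by 2 electrons at once, had 139.9 CPM (132 to 148) in the knockout set and 204 CPM (199 to 209) in the reconstitution set. Per kb it was 4.63 times NQO2 (3.97 to 5.42) and 6.72 times (6.24 to 7.26), and with the longest transcript 19.1 and 27.8 times. Exons of NQO1 overlap those of the antisense gene AC092115.2, which is not listed, by up to 347 bases. HMOX1, the inducible heme oxygenase, which is also a main target of BACH1, had 30.3 CPM (26.5 to 34.4) and 54.8 CPM (52.2 to 57.4). HMOX1 was below the median gene in the knockout set and above it in the reconstitution set, at percentiles 39.8 and 67.4. Its constitutive paralogue HMOX2 was higher in both, by 2.30 times per kb (1.98 to 2.69) and 1.62 times (1.52 to 1.72).

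Per kb of transcript, with the median length of the protein-coding transcripts, the order from the highest was TXNRD1, NQO1, NFE2L2, KEAP1, SRXN1, GCLM, HMOX1, GCLC and SLC7A11 in the knockout set. In the reconstitution set it was TXNRD1, NQO1, KEAP1, SRXN1, NFE2L2, HMOX1, GCLM, GCLC and SLC7A11. Levels ran from 176 to 2.33 CPM per kb in the knockout set and from 327 to 2.05 in the reconstitution set. Counting intervals of neighbours in these orders did not overlap, but the spread between libraries is unknown and the order depends on the length. GCLC and SLC7A11 held the last 2 places in both sets with each length, while SRXN1, with a coding length of 411 bases, ranged from place 1 to place 5.

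The sets of libraries were then set side by side. They were normalized separately and differ in cells, vectors, antibiotic selection and libraries at once. These cannot be told apart, so the values describe these averages only. Over the 10976 shared genes the reconstitution average minus the knockout average centred on -0.12 (median, log2), and differences are given from that value. The middle 50% of genes lay between -0.38 and 0.32, and 90% between -1.12 and 0.79. TXNRD1 (1.01), HMOX1 (0.98), NQO1 (0.67) and SRXN1 (0.45) lay above the middle 50%, and GCLM (-1.03) and NFE2L2 (-0.78) below it. KEAP1 (0.05), GCLC (0.08) and SLC7A11 (-0.06) stayed near the centre, each within its counting error of 0.12, 0.23 and 0.24. TXNRD1 and HMOX1 were at percentiles 97.7 and 97.4 of all shared genes, and GCLM was at 6.05. Of the 9 genes, 6 lay above and 3 below the centre, with a median of 0.08, beside 50% of all shared genes above it. Without centring 4 were above 0, and against genes of like expression 5.

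Across the shared genes the difference followed the GC content of the transcript, with a Spearman's rho of 0.486 over the 94.3% of genes with a value, given as a description because genes share libraries. Set against the 500 shared genes nearest in GC content, GCLM lay at -0.55 and NFE2L2 at -0.65, TXNRD1 at 0.96, HMOX1 at 0.76 and NQO1 at 0.59. SRXN1 went from 0.45 to 0.21 and GCLC from 0.08 to 0.20. SLC7A11, with 35.4% GC, moved from -0.06 to 0.67 and KEAP1, with 61.8%, from 0.05 to -0.15.

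The wider pathway was taken as 7 lists with 97 genes in all, the 9 genes included. Of these, 79 (81.4%) were in the knockout table and 81 (83.5%) in the reconstitution table, and 16 were in neither. The highest and lowest genes of a list are given by average log2 CPM, again not per length. Median percentiles of the listed genes were 76.9 and 80.6. Among the 79 genes that both sets share, 56 lay above and 23 below the centre of the set difference, with a median of 0.26, where all shared genes divide evenly by construction. This division holds for that centre only. It was not counted without centring or against genes of like expression or GC content, which the difference followed.

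All 16 regulators were in both tables. The highest in the knockout set was NFE2L1, the paralogue NRF1, with an average log2 CPM of 8.43, and in the reconstitution set SQSTM1, the autophagy receptor p62 that binds KEAP1, with 9.54. The lowest were BTRC (4.70), an F-box protein that recognizes phosphorylated NRF2, in the knockout set and PALB2 (4.25) in the reconstitution set. Per kb NFE2L2 was 0.166 times NFE2L1 (0.153 to 0.180) and 0.0804 times (0.0762 to 0.0848), and with the longest transcript 0.466 and 0.225 times. The repressor BACH1 had 5.31 and 5.19, and NFE2L2 was 1.68 times BACH1 per kb (1.47 to 1.92) in the knockout set and 0.974 times (0.902 to 1.05) in the reconstitution set. The latter was 2.84 with the longest transcript and 1.71 on coding length, so which of the 2 was higher there rests on the length used. Of the ligase, CUL3 had 6.88 and 6.52 and RBX1 5.55 and 4.94. The small MAF partners stood at 5.88 and 6.15 for MAFF, 6.53 and 6.27 for MAFG and 6.60 and 6.005 for MAFK. DPP3 (6.54 and 6.44) and PALB2 (4.85 and 4.25), which carry a KEAP1-binding motif like that of NRF2, and the phosphatase PGAM5 (7.10 and 7.17) were listed too, as were the kinase GSK3B (6.18 and 6.42) and the coactivator CREBBP (6.39 and 6.73). SQSTM1 had the largest positive difference of the regulators, 1.51, and NFE2L2 the most negative.

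Of 23 genes of glutathione synthesis and use, 17 were in the knockout table and 18 in the reconstitution table. GSTP1, a glutathione S-transferase, was the highest in the knockout set (8.08), and GPX4, which reduces lipid hydroperoxides, in the reconstitution set (8.23). GSTM4 was lowest in the knockout set (3.27), and CHAC1, which degrades glutathione and was listed for the reconstitution set only, in the other (2.46). GPX2, GSTM1, GSTM2, GSTA1 and MGST2 were in neither table. GPX1 had the largest positive difference (1.498) and GCLM the most negative. Reads of the GSTM genes may be split between near-identical copies.

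Of the 12 genes of the thioredoxin system 11 were listed in both tables, and PRDX2 in neither. PRDX1 was the highest in the knockout set (9.61) and TXNRD1 in the reconstitution set (9.30). TXNIP, which binds thioredoxin, was the lowest in both (4.93 and 4.22) and had the most negative difference (-0.59), while TXNRD1 had the largest positive one.

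Of the 22 genes for quinone, carbonyl and drug detoxification 14 were listed in both tables. The aldo-keto reductases AKR1B1, AKR1B10, AKR1C1, AKR1C2 and AKR1C3, well known NRF2 targets in other human cells, were in neither, nor were ALDH3A1, UGT1A6 and ABCC3. Absence says only that a gene was not listed, because the counting of reads and the filter on low genes are not given. ABCC2, a drug efflux pump, was the highest in the knockout set (7.57) and NQO1 in the reconstitution set (7.67), and the lowest was PTGR1 (2.48 and 2.28). ABCC1, another efflux pump, had the largest positive difference (0.69) and ALDH1A1, an aldehyde dehydrogenase, the most negative (-1.71), at percentile 1.30 of all shared genes.

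Heme and iron genes were led by FTL, the ferritin light chain, at 10.07 and 11.30, with the largest positive difference of its list (1.36). Its lowest genes were HMOX1 (4.92) in the knockout set and the biliverdin reductase BLVRA (5.33), which also had the most negative difference (-0.28), in the reconstitution set. FTH1, the ferritin heavy chain, followed FTL, with 9.63 and 10.82. Both ferritin genes have many processed copies in the genome, so the split of their reads is uncertain. ABCB6 and SLC40A1, the iron exporter ferroportin, were in neither table.

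All 6 genes of NADPH supply were in both tables, with median percentiles of 90.6 and 93.4, the highest of the 7 lists in both sets. TKT, transketolase, led with 8.64 and 9.52, and ME1, malic enzyme, was the lowest with 5.45 and 5.13 and had the most negative difference (-0.20). TKT had a difference of 1.00. Of the 8 remaining targets and antioxidant enzymes SOD1 was the highest (8.50 and 8.16) and had the most negative difference (-0.22). SESN2 (3.63) was the lowest in the knockout set and SESN1 (2.02), listed there only, in the reconstitution set. SLC6A6, the taurine transporter, had the largest positive difference (1.14).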

How the data were processed

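Per the labels, total RNA of HLF cells was made into libraries with the NEBNext Ultra II kit. The study's methods name the NEBNext Ultra RNA kit instead. The submitters' processing notes name bcl2fastq 2.20, STAR 2.5.4, edgeR 3.26.8 and hg19. How reads were counted, the filter on low genes and the number of libraries are not given in the sources used here. The authors deposited 3 tables, each with an average log2 CPM per gene over the libraries of their fit. The tables also hold the authors' own comparisons (log2 fold changes, F statistics, p-values and adjusted p-values), which were not used here. The averages of the USP28-WT and USP28-M tables were identical (largest difference 0), so these are 1 set. The header of the knockout table stands 1 field to the left of its values and was read accordingly. The average CPM values of the tables summed to 1012560 and 1004920.

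Levels, percentiles, ratios and differences were computed from the averages with Python 3.11.15, numpy 2.4.6, pandas 2.3.3 and scipy 1.17.1, and no test between conditions was made. Transcript lengths, GC content and overlapping genes came from GENCODE release 29. The step and motif searches were tested on simulated data. For the step, recovery of the depth was required only for reads pooled over libraries, and not for averages over libraries. Reads of a gene are its average CPM times the estimated total, intervals of ratios are exact binomial. The members, lists, gene pairs and the shared stretch were chosen with earlier results or values of these data known. Named genes are the 9 members, all regulators and, in each list, the highest, the lowest, the largest differences and the absent genes. FTH1, genes of the pairs and genes with the core are named in addition. Some genes that the rule would name are not reported here.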

Additional observations from a re-analysis of the deposited data

How the results depend on the processing

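With 1 average per set no replicate could be left out, and no paired analysis was possible because the result comes from no test and samples carry no replicate numbers. Ranked among the 10976 genes of all tables, the median percentile of the 9 genes in the reconstitution set was 69.2 in place of 72.6. In the order per length, 5 of 9 genes kept their place with the longest transcript in each set, and 1 in the knockout set and 0 in the reconstitution set with the coding length, so the order rests on the length. With the stricter core 0 of 7 genes had a match, beside 0.689% of all genes with a window. Within 200 bases before the start 3 of 7 held the core TGACNNNGC, beside 11.3% of all genes and 13.7% of those of the knockout table. Without centring, the set difference was -0.077 for KEAP1 and -0.038 for GCLC, both of opposite sign to the centred value. KEAP1 also changed sign against genes of like expression (-0.011) and of like GC content (-0.15), as did SLC7A11 in the latter (0.67), an alternative chosen after seeing the data. These differences of KEAP1 and GCLC are within or near their counting error. The other 6 genes kept their direction under all 3 centrings. The estimated reads, 7700000 and 30300000 from the 500 lowest genes, stayed within 1.5 times. Depth limits GCLC and SLC7A11 most, with counting errors of 7.16% and 7.60% in the knockout set.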
